A study of Homo sapiens with 9 samples.

Results

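The 45 interferon-stimulated genes described here were chosen by name as genes known to respond to interferons, and each was read from the array probe that carries a RefSeq transcript of the gene, using the brightest such probe where there were several. A probe was found for 43 of the 45 genes, among 21743 genes with a probe in all, while SAMD9L and IFI27 were not analysed here. The study hybridised 9 single-colour Agilent arrays, 3 to a group, which the labels call OSK-A549-Colony, OSK-A549-SN and, for the untransduced cells, parental A549. Every sample derives from A549, a line established from a human adenocarcinoma of the lung. Both other groups descend from A549 cells that received OCT3/4, SOX2 and KLF4 (OSK) from pMXs retroviral vectors made in PLAT-A packaging cells.

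OSK-A549-Colony cells are the dome-shaped colonies that stayed on the dish in trypsin, and OSK-A549-SN cells are the spindle-shaped cells that arose around those colonies and came off first. By their labels the Colony and SN arrays were 7 to 9 passages beyond the parental arrays, so passage and transduction cannot be told apart in a comparison with parental A549. RNA came from 3 separate transduction experiments according to the methods. Cells given a retrovirus with EGFP, which would show the response to the vector itself, are not among these arrays. The question here is which genes of the innate antiviral response differed after retroviral transduction, and whether they differed between colony and spindle cells.

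Interferons are secreted when sensors inside a cell meet viral RNA or DNA. They bind receptors on the same and on neighbouring cells, and the receptor kinases then switch on transcription factors such as STAT2, which joins IRF9 and binds the interferon-stimulated response element (ISRE) in the promoters of target genes. The products block viral entry, translation and replication, and some of them feed back on the pathway as sensors or inhibitors, while IRF1 and related factors can act on the same element without secreted interferon.

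The ISRE was looked for as GAAANNGAAA on both strands, counting overlapping matches, in the 250 bases before the start of each gene in the RefSeq promoters of GRCh38.p14. Of the 45 genes, 35 had a promoter in that table and 20 of these (57.1%) held the motif, against 839 of 27305 promoters in all (3.07%). The stretches of 60 bases below are shown because their genes carry the results that follow and differ in direction. All are printed 5′ to 3′ along the strand of the gene, with the bases fixed by the motif in capitals.
IFIT1: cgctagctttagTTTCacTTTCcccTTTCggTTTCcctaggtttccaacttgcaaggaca
IFIT3: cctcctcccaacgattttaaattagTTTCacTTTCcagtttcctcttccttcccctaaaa
ISG15: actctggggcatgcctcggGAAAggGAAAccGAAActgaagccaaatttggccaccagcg
IFIH1: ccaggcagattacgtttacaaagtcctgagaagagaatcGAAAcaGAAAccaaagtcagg
The IFIT1 stretch lies at chr10:89392495-89392554 and the IFIT3 stretch at chr10:89327850-89327909, both on the plus strand. The ISG15 stretch lies at chr1:1013365-1013424 on the plus strand, and the IFIH1 stretch at chr2:162318685-162318744 on the minus strand. In IFIT1 and IFIT3 the motif reads on the opposite strand, as TTTCNNTTTC, and the ISG15 stretch holds 2 overlapping matches that share 1 GAAA. No match was found in these windows for IFI16, PARP9 and CMPK2.

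Levels are given as log2 intensity relative to the 75th percentile of the array, so that 0 is an intensity of 217.5 to 270.6 depending on the array. Levels of different probes are not ranked against each other. For some pairs of genes the difference within an array is compared between groups. A probe counts as detected where it was well above the local background. Of the 43 genes, 26 were detected on all 9 arrays and 6 on none, and 28 to 36 were detected on a single array. All 6 epithelial markers and all 5 A549 markers were detected on every array. In Colony against parental cells the epithelial cadherin CDH1 was 1.99-fold lower (adjusted p = 0.0318), the keratin KRT19 differed by 1.18 ± 0.29 (adjusted p = 0.0625) and NQO1 by 0.55 ± 0.12 (adjusted p = 0.0462), each without overlap. The markers detected include the CDKN2A probe, although A549 is known to lack CDKN2A. Of 6 fibroblast markers at most 1 was detected on an array. The summed level of 6 immune cell markers was 11.5 to 19.0 times the 75th percentile in parental A549, 11.5 to 12.7 in Colony and 14.8 to 18.9 in SN cells, carried mainly by the CD14 and CD79A probes, while the probe of PTPRC, the defining marker of blood cells, was detected on all 9 arrays at -3.22 to -2.08. One of the 6, the lysosomal and macrophage marker CD68, was higher in both transduced groups than in parental A549. It stood at -0.17, -0.19 and 0.25 on the parental arrays, at 0.89 to 1.08 on the Colony and at 0.79 to 1.13 on the SN arrays, without overlap of either with parental A549. CD68 was 1.04 ± 0.16 higher in Colony (2.05-fold, adjusted p = 0.0272, called) and 1.03 ± 0.18 higher in SN cells (adjusted p = 0.0577). PTPRC differed by -0.57 and CD14 by -0.74 in Colony cells, neither of which passed. Of 5 endothelial markers, the VWF and CDH5 probes were detected on all 9 arrays, at -4.04 to -2.54 and -3.61 to -2.02. The part of these markers in the results below was not tested. OSK-A549-SN replicate 3 was the only array on its slide. In bulk RNA, fewer cells that express a gene and less RNA per cell cannot be told apart.

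In OSK-A549-Colony cells against parental A549, the DNA sensor IFI16, the antiviral ADP-ribosyltransferase PARP9 and the RNA sensor IFIH1 rose, while the translation inhibitor IFIT1 fell. The nucleotide kinase CMPK2 was also called higher, but no parental array detected it, so it is given below as a bound. These 5 of the 36 genes tested passed a Benjamini-Hochberg adjusted p under 0.05 with a fold change over 2 in limma, where 3.70% of all 30864 probes tested did. Tested were the genes that at least 1 of the 6 arrays detected, and CMPK2, GBP1, SAMD9 and OAS2 entered through Colony arrays alone. When probes had to be detected in both groups, an alternative chosen after seeing the data, 4 of 32 genes were called (IFI16, PARP9, IFIH1 and IFIT1), beside 1132 of 26697 probes, with a median of 0.35. At an unadjusted p under 0.05, 15 of the 36 were higher and 4 lower, beside 15.2% and 14.9% of all probes. The Colony and parental arrays did not overlap for 18 genes that were higher and 5 that were lower, beside 20.9% and 20.7% of all probes. CMPK2, GBP1 and SAMD9, which entered through Colony arrays alone, are among the 15 and among the 18 higher genes. The median log2 fold change of the 36 genes was 0.36, and that of all probes was -0.03.

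IFI16 binds DNA from viruses in the nucleus and cytoplasm. Its level was -4.52, -4.15 and -4.65 on the parental arrays, -2.33, -2.65 and -2.76 on the Colony arrays, and -2.99, -3.32 and -3.18 on the SN arrays. The 3 groups did not overlap, with parental lowest and Colony highest, and only 1 of the 3 parental arrays detected the gene. Colony cells exceeded parental A549 by 1.86 ± 0.19 (SE) on the log2 scale, a 3.63-fold difference (adjusted p = 0.0171), and SN cells by 1.27 ± 0.18 (2.42-fold, adjusted p = 0.0428). Under a normexp correction of the background with an offset of 50, which compresses dim probes, the differences were 0.58 (adjusted p = 0.00775, under the fold change of 2) and 0.39 (adjusted p = 0.0612), so neither was called. With the processed signal IFI16 was the 1 gene of the group called in both transduced populations, which share the parental arrays as controls.

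PARP9 works with the ubiquitin ligase DTX3L. It stood at -2.15, -2.19 and -2.02 on the parental arrays, at -0.90, -1.09 and -1.06 on the Colony arrays and at -0.82, -0.96 and -1.61 on the SN arrays. Every transduced array was above every parental one, with SN replicate 3 closest to them. The difference was 1.10 ± 0.11 in Colony cells (2.14-fold, adjusted p = 0.0162) and 0.99 ± 0.23 in SN cells (1.98-fold, adjusted p = 0.0932), and without SN replicate 3 the latter was 1.23 (adjusted p = 0.0514). A second PARP9 probe, also detected on all 9 arrays, differed by 0.14 and 0.20 in the same comparisons, so the 2 probes disagreed in size.

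IFIH1 (MDA5) recognises long viral RNA in the cytoplasm, and CMPK2 supplies nucleotides in mitochondria. IFIH1 read -1.15, -0.91 and -1.61 in parental A549, 0.14, -0.25 and -0.33 in Colony cells and -0.35, -0.84 and -1.15 in SN cells. The Colony arrays lay above all others, and the SN arrays overlapped the parental range. Colony cells exceeded parental A549 by 1.08 ± 0.23 (2.11-fold, adjusted p = 0.0463), against 0.45 ± 0.28 for SN cells (adjusted p = 0.404). The SN difference was 0.23 to 0.63 when single arrays were left out. On the parental arrays CMPK2 was never well above background, and its measured values there were -4.67, -5.13 and -4.55. It was detected on all 6 transduced arrays, at -3.69, -3.98 and -3.63 in Colony and -4.10, -4.05 and -3.48 in SN cells. Both transduced groups lay above the measured parental values. As these were not well above background, a separation of the arrays is not established. CMPK2 was at least 1.35-fold higher in Colony than in parental A549 and at least 1.25-fold higher in SN cells. The fit of the measured values, dim ones included, gave adjusted p = 0.0382 and 0.116, and with normexp 0.0717 and 0.178. For these bounds the dim value on a parental array was replaced by the lowest detected signal of that array where this was higher, so they are smaller than the measured difference of 1.01 ± 0.19 in Colony cells.

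IFIT1 binds viral RNA that lacks the cap methylation of host mRNA. It was the 1 gene called lower, at 0.25, 0.75 and 0.56 on the parental arrays, -0.32, -0.97 and -1.18 on the Colony arrays and -0.03, 0.13 and -0.22 on the SN arrays. The 3 groups did not overlap, and the order was the reverse of that for IFI16. Colony cells were below parental A549 by 2.54-fold (log2 difference -1.35 ± 0.26, adjusted p = 0.0403), and SN cells by 1.47-fold (-0.56 ± 0.18, adjusted p = 0.166).

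**Figure D1:**
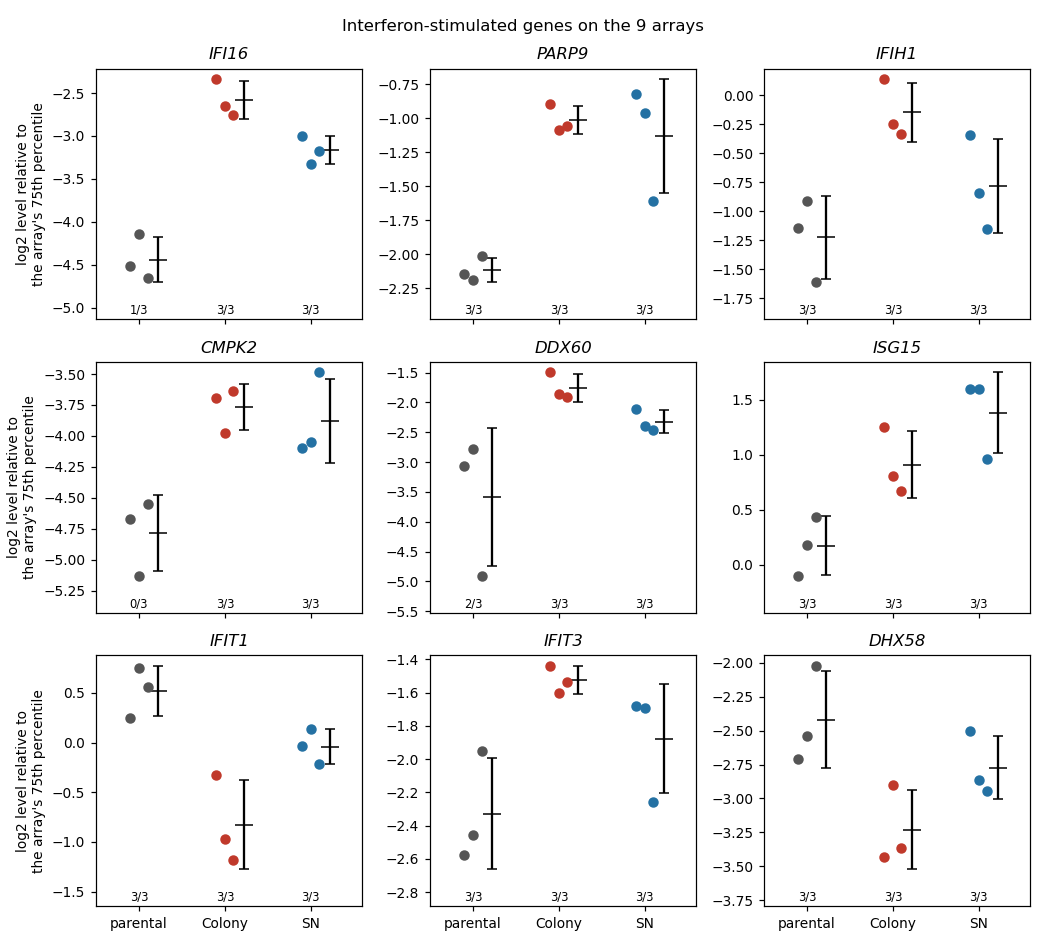
Log2 level of 9 interferon-stimulated genes relative to the 75th percentile of each array (y axis, a separate range for each gene) on the 3 parental A549, 3 OSK-A549-Colony and 3 OSK-A549-SN arrays. Points are arrays, horizontal marks with bars are the mean ± SD (n = 3), and the fractions count the arrays that detected the gene. IFI16 was highest in Colony cells, at -2.76 to -2.33, while IFIT1 was lowest there, at -1.18 to -0.32.

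How far these calls rest on single arrays was examined by leaving each out. No gene of the group was called without parental replicate 2, Colony replicate 1, Colony replicate 2 or Colony replicate 3, 2 were called without parental replicate 1 (IFI16 and PARP9) and 6 without parental replicate 3 (IFI16, PARP9, CMPK2, IRF1, MX1 and DDX60). The calls of IFIH1 and IFIT1 were thus lost in each of the 6 fits. Over all probes the count of 1143 fell to 1, 141, 0 and 85 in the first 4 of these fits, and was 1362 without parental replicate 1 and 1090 without parental replicate 3. The log2 differences themselves ranged over these 6 fits from 1.74 to 2.01 for IFI16, 1.04 to 1.15 for PARP9, 0.88 to 1.23 for IFIH1 and -1.60 to -1.17 for IFIT1. Under normexp IFIT1 alone was called, and the differences were 0.59 for PARP9, 0.76 for IFIH1 and -1.04 for IFIT1.

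Of the 4 signal transducers, 3 were higher and 1 was lower in Colony cells than in parental A549, and none was called, with a median difference of 0.23 in Colony and 0.12 in SN cells. IRF1, a transcription factor that answers interferon-gamma, read -1.67, -1.45 and -0.99 in parental A549, -0.61, -0.40 and -0.53 in Colony cells and -0.75, -0.92 and -1.17 in SN cells. The Colony arrays were the highest without overlap, and the SN arrays overlapped the parental range. IRF1 exceeded parental A549 by 0.86 ± 0.20 in Colony cells (1.81-fold, adjusted p = 0.0544) and by 0.43 ± 0.22 in SN cells (adjusted p = 0.333), and without parental replicate 3 the former was 1.05 (adjusted p = 0.0259) and called. IRF7, which drives the type I interferon genes, was 0.44 ± 0.13 higher in Colony cells, also without overlap (adjusted p = 0.0820). IRF9, the DNA-binding partner of STAT2, differed by -0.37 ± 0.17 in Colony cells (adjusted p = 0.206), with Colony arrays at -0.33 to -0.23 below the parental range of -0.17 to 0.40, and by -0.21 without parental replicate 3.

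The 3 RNA sensors did not share a direction. DDX60, a helicase that assists RNA sensing, was at -3.07, -2.78 and -4.91 on the parental arrays, where 2 of 3 detected it, at -1.49, -1.86 and -1.92 on the Colony arrays and at -2.11, -2.39 and -2.46 on the SN arrays. The groups did not overlap, but parental replicate 3 lay far below its group. The difference of 1.83 ± 0.58 in Colony cells did not pass (3.55-fold, adjusted p = 0.102), and without parental replicate 3 it was 1.17 (adjusted p = 0.0343), and with normexp 0.66 (adjusted p = 0.0127, under the fold change of 2). DHX58 (LGP2), a regulator of IFIH1 and RIGI, read -2.71, -2.54 and -2.02 in parental A549, -3.43, -2.90 and -3.36 in Colony cells and -2.51, -2.87 and -2.95 in SN cells. Colony arrays were below parental arrays without overlap, by 0.81 ± 0.24 (adjusted p = 0.0891), and by 0.39 with normexp. Since both probes lie on the same arrays, the difference between IFIH1 and DHX58 is not altered by a constant taken off an array, but a background correction that acts on dim probes does alter it. IFIH1 minus DHX58 was 0.41 to 1.62 on parental, 2.65 to 3.58 on Colony and 1.80 to 2.16 on SN arrays, which do not overlap. This pair, and the pairs below, were chosen after their values were seen and are given with no test.

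In the IFIT family, IFIT1 fell while its 3 measured relatives were higher in Colony cells, none of them called. IFIT2, IFIT3, IFIT1 and IFIT5 follow each other in this order on chromosome 10, with the pseudogene IFIT6P and IFIT1B between IFIT3 and IFIT1, and their products bind foreign RNA together or alone. IFIT2, IFIT3 and IFIT5 are described here because they neighbour IFIT1, a choice made after their values were seen. IFIT3 read -2.58, -2.45 and -1.95 in parental A549, -1.44, -1.60 and -1.53 in Colony cells and -1.68, -1.69 and -2.26 in SN cells. Its Colony arrays lay above all others, by 0.80 ± 0.19 against parental A549 (1.74-fold, adjusted p = 0.0561). IFIT5 was 0.76 ± 0.19 higher in Colony cells (adjusted p = 0.0669), also without overlap, and IFIT2 0.36 ± 0.21 higher with overlap (adjusted p = 0.300). IFIT3 minus IFIT1 within an array was -3.21 to -2.51 in parental A549, -1.11 to -0.35 in Colony cells and -2.04 to -1.65 in SN cells. The mean of this difference was thus 2.15 larger in Colony and 1.01 larger in SN than in parental cells, in groups that did not overlap. The promoter stretches of both genes printed above contain TTTCNNTTTC. Against IFIT1, IFIT5 gave 2.10 and 0.93 and IFIT2 gave 1.71 and 0.80 in the same way.

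ISG15 is a ubiquitin-like protein that is attached to other proteins by the conjugating enzyme UBE2L6 and the ligase HERC5 and removed by USP18. ISG15 itself stood at -0.10, 0.18 and 0.44 on the parental arrays, at 1.25, 0.80 and 0.67 on the Colony arrays and at 1.59, 1.60 and 0.96 on the SN arrays. All transduced arrays were above all parental ones. The difference was 0.74 ± 0.21 in Colony cells (1.67-fold, adjusted p = 0.0868) and 1.21 ± 0.24 in SN cells (2.31-fold, adjusted p = 0.0715), neither of which passed. Without SN replicate 3, the lowest of its group, the latter was 1.42 (adjusted p = 0.0687). Of the other 4 genes, UBE2L6 and HERC5 were lower in Colony cells. UBE2L6 read 0.91, 1.19 and 1.62 in parental A549, 0.48, 0.66 and 0.61 in Colony cells and 0.80, 1.07 and 0.76 in SN cells, and was 0.65 ± 0.20 lower in Colony cells (adjusted p = 0.0934). HERC5 read -1.64, -1.33 and -1.53 in parental A549, -2.15, -2.07 and -2.01 in Colony cells and -1.72, -1.63 and -1.91 in SN cells. It was 0.57 ± 0.12 lower in Colony cells, which passed the adjusted p (0.0459) but not the fold change of 2. In both genes the Colony arrays were below the parental and the SN arrays without overlap. USP18 stood at 1.32 ± 0.06 (SD, n = 3) in parental A549, 1.54 ± 0.05 in Colony and 1.69 ± 0.14 in SN cells, higher than in parental cells without overlap by 0.22 ± 0.09 in Colony (adjusted p = 0.189) and 0.37 ± 0.13 in SN cells (adjusted p = 0.192). HERC6, a relative of HERC5 detected on 3 arrays, differed by 0.05 ± 0.20 in Colony cells. ISG15 minus UBE2L6 was -1.18 to -1.01 within parental arrays, 0.06 to 0.77 within Colony arrays and 0.19 to 0.79 within SN arrays. The transduced groups overlapped each other here and not the parental arrays, with mean changes of 1.39 and 1.57, and ISG15 minus HERC5 changed by 1.31 and 1.46.

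Of the other antiviral effectors, MX1, a dynamin-like GTPase that traps viral particles, was detected on 1 of 3 parental arrays and on all transduced ones. Its values were -5.10, -4.38 and -3.69 in parental A549, -3.26, -3.51 and -3.31 in Colony cells and -3.77, -3.92 and -4.43 in SN cells. The Colony arrays were the highest, and the SN arrays lay within the wide parental range. The Colony difference of 1.03 ± 0.36 did not pass (adjusted p = 0.125), and it was 1.38 without parental replicate 3 (adjusted p = 0.0406) but 0.67 without parental replicate 1 (adjusted p = 0.142) and 0.25 with normexp (adjusted p = 0.192). OASL, which binds RIGI, was detected on 2 of 3 parental arrays at -3.59, -4.03 and -4.74, and stood at -2.21, -3.65 and -3.55 in Colony cells and at -2.70, -2.62 and -3.24 in SN cells. Its SN arrays were above all parental arrays, by 1.27 ± 0.34 (2.41-fold, adjusted p = 0.113) and by 0.23 with normexp (adjusted p = 0.240), while 2 of the 3 Colony arrays were close to parental replicate 1. The OAS family, whose other members make 2'-5' oligoadenylates in answer to viral RNA, had a median difference of 0.22 in Colony and 0.45 in SN cells, and no member was called.

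Some members stayed near background in all 3 groups. RSAD2 (viperin), the tetherin gene BST2, IFI44, IFI44L, the apoptosis-associated factor XAF1 and EPSTI1 were not well above background on any of the 9 arrays, with measured values between -7.04 and -4.40. MX2 was detected on SN replicate 3 alone and GBP1 on Colony replicate 1 alone. SAMD9 was detected on 1 Colony and 1 SN array. Genes with and without the ISRE motif were found in both directions. Among the genes tested, 10 of 15 with a match and 10 of 12 without one were higher in Colony than in parental cells, with median log2 differences of 0.35 and 0.41. Of all probes tested in this comparison, 14564 of 30864 were higher. The counts and medians include GBP1 and SAMD9 (with a match) and CMPK2 (without), which were tested through Colony arrays alone.

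**Figure D2:**
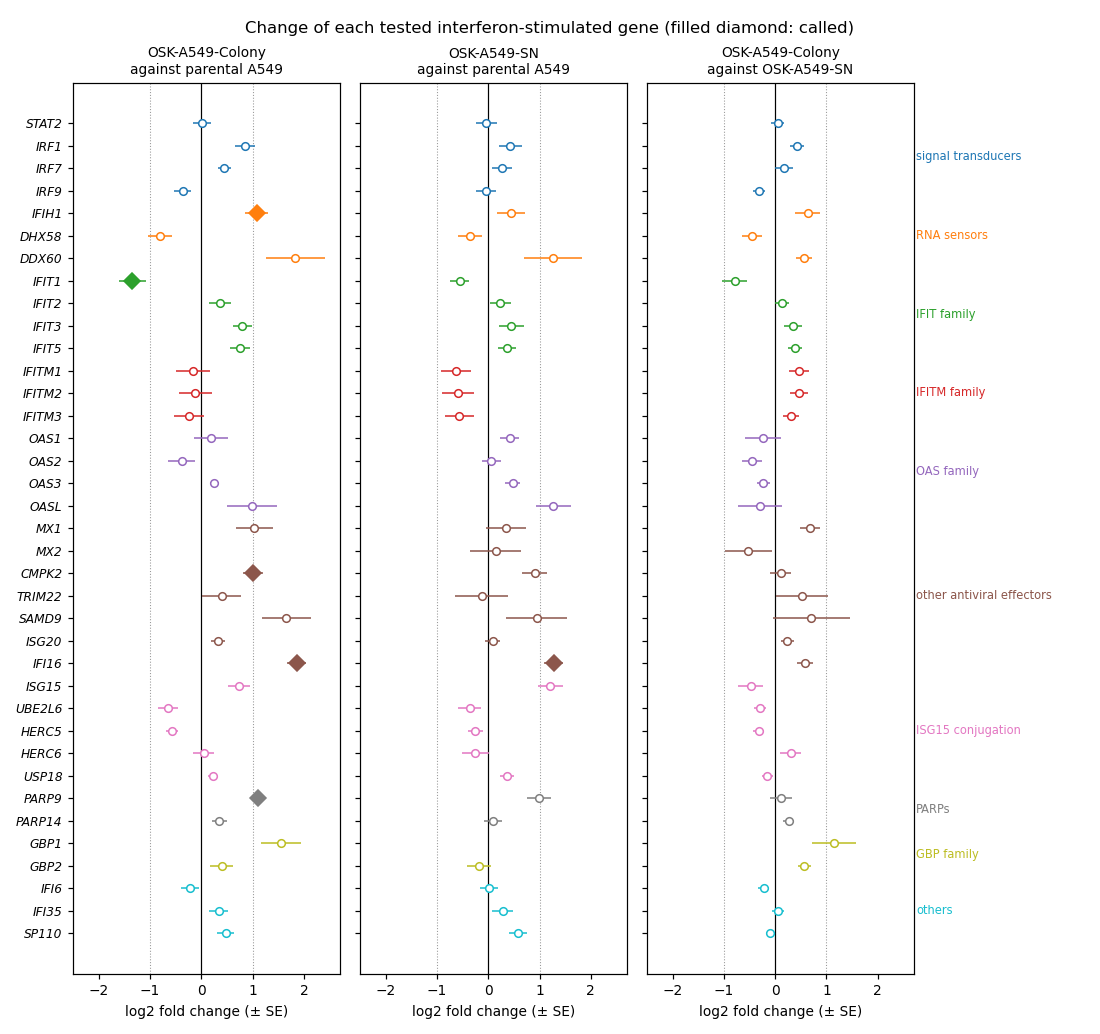
Log2 fold change ± SE (x axis) of each interferon-stimulated gene tested, in rows ordered by role, for the 3 comparisons, with dotted lines at a 2-fold change. Filled diamonds passed an adjusted p under 0.05 with a fold change over 2, and open circles did not. IFI16, PARP9, IFIH1 and CMPK2 are filled on the right and IFIT1 on the left for Colony against parental A549, IFI16 alone is filled for SN against parental A549, and none for Colony against SN.

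In OSK-A549-SN cells against parental A549, IFI16 was the 1 gene called among 36 tested, where 1.55% of all 32218 probes were. At an unadjusted p under 0.05, 8 genes were higher and 1 lower, beside 11.2% and 10.4% of all probes. CMPK2, OAS2, SAMD9 and MX2 entered through SN arrays alone, and CMPK2 is 1 of the 8 and of the non-overlapping genes that follow. The groups did not overlap for 11 genes that were higher and 3 that were lower, beside 16.8% and 15.2%. The median log2 fold change was 0.25, against 0.08 for all probes, and 0.13 against 0.04 with normexp. After IFI16 the largest differences were those of OASL, DDX60 (1.26 ± 0.56, adjusted p = 0.267), ISG15 and PARP9. The DDX60 difference rested on parental replicate 3, without which it was 0.60 (adjusted p = 0.149), and it was 0.34 with normexp. Without any 1 of the 6 arrays IFI16 was no longer called, at log2 differences of 1.17 to 1.42, and the same held with slide as a block (1.28, adjusted p = 0.0932) and with quantile normalization (1.31, adjusted p = 0.0518).

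Among the genes lower in SN cells were those of the IFITM family, membrane proteins that hinder the fusion of enveloped viruses with endosomes. IFITM1 read -3.50, -3.12 and -2.42 in parental A549, -3.48, -2.79 and -3.28 in Colony cells and -3.63, -3.54 and -3.76 in SN cells. The SN arrays were below all parental ones, while the Colony arrays lay among them. SN minus parental was -0.63 ± 0.29 for IFITM1 (adjusted p = 0.276), -0.59 ± 0.31 for IFITM2 (adjusted p = 0.326) and -0.56 ± 0.28 for IFITM3 (adjusted p = 0.308). IFITM2 and IFITM3 are near-identical in sequence, so their probes may share signal. All 3 genes were highest on parental replicate 3, and without it the differences were -0.33 for IFITM1, -0.26 for IFITM2 and -0.27 for IFITM3, closer to 0 than the -0.54 of IFIT1 in the same fit.

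In OSK-A549-Colony against OSK-A549-SN cells, whose passage numbers are the same, none of 37 genes was called, and neither was any of the 31746 probes tested (0%). At an unadjusted p under 0.05, 9 genes were higher in Colony cells and 3 lower, beside 8.80% and 10.7% of all probes. The groups did not overlap for 11 genes that were higher and 4 that were lower, beside 13.5% and 17.3%. GBP1 entered through Colony replicate 1 alone and MX2 through SN replicate 3 alone, and GBP1 is 1 of the 9 and of the 11 higher genes. The median was 0.13, against -0.06 for all probes, and it was 0.04 with slide as a block, 0.05 with normexp, 0.08 without SN replicate 3, 0.08 without Colony replicate 1, 0.21 without Colony replicate 2 and 0.24 without SN replicate 1. The smallest adjusted p was that of GBP2, a guanylate-binding protein that attacks the membranes around intracellular pathogens. GBP2 stood at -1.44, -1.40 and -1.70 on the Colony arrays and at -1.98, -2.06 and -2.21 on the SN arrays, which do not overlap, and differed by 0.57 ± 0.12 (1.48-fold, adjusted p = 0.124). On the higher side were also MX1 (0.68 ± 0.20, adjusted p = 0.174), IFIH1 (0.63 ± 0.24, adjusted p = 0.245), IFI16 (0.59 ± 0.15, adjusted p = 0.154) and DDX60 (0.57 ± 0.16, adjusted p = 0.171). On the lower side were IFIT1 (-0.79 ± 0.24, adjusted p = 0.192), ISG15 (-0.47 ± 0.24, adjusted p = 0.343), DHX58 (-0.46 ± 0.20, adjusted p = 0.275), OAS2 (-0.45 ± 0.20, adjusted p = 0.287) and HERC5 (-0.32 ± 0.11, adjusted p = 0.201). For OAS2 a second probe gave -0.30 here but 0.67 in Colony against parental A549, where the probe used gave -0.39, so its direction against parental A549 is not settled. With the stricter filter, which needs a probe to be detected on all arrays of 1 group, 139 of 26355 probes were called in this comparison, and 32 with normexp, none of them a probe used for these genes.

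**Figure D3:**
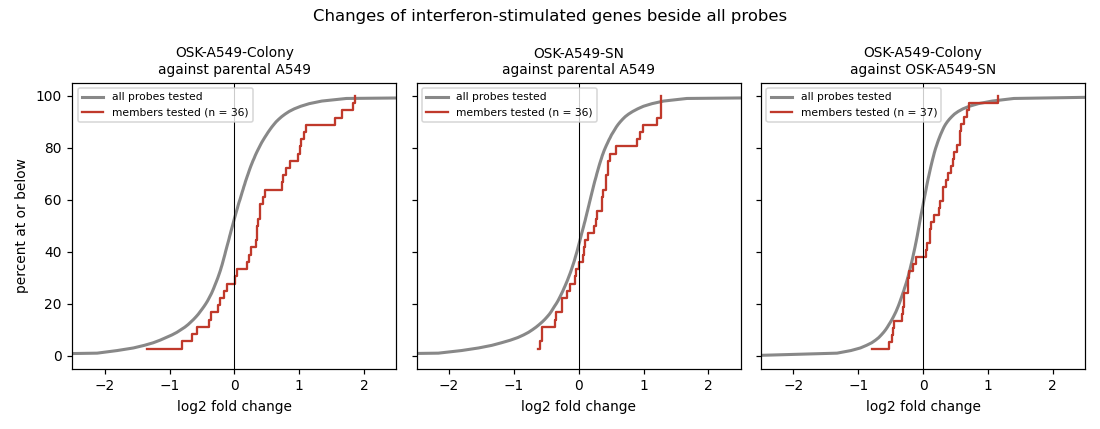
Cumulative percent (y axis) of interferon-stimulated genes tested (steps, n = 36, 36 and 37) and of all probes tested (smooth line) at or below a log2 fold change (x axis, cut at both ends) in the 3 comparisons. The genes lie to the right of all probes at the middle of each plot, with medians of 0.36, 0.25 and 0.13 against -0.03, 0.08 and -0.06.

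Across all 3 groups, limma's F test passed 5 of the 37 genes tested at an adjusted p under 0.05, beside 11.4% of all 33083 probes. They were IFI16 (adjusted p = 0.00675), PARP9 (0.0238), IFIT1 (0.0287), CMPK2 (0.0390) and ISG15 (0.0393), of which CMPK2 entered through the transduced arrays alone. ISG15 was thus passed by the test over 9 arrays and by neither comparison of 6 arrays with parental A549. IFI16 alone passed the F test whichever single array was left out.

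The other genes of the pathway were read from a list of 54 genes, of which 52 had a probe. In Colony against parental A549, 1 of 40 tested was called higher and none lower, beside 3.70% of all probes called in either direction, with a median of 0.02 against -0.03 for all probes. That gene was TLR3, the endosomal sensor of viral RNA. TLR3 stood at -3.12, -2.91 and -3.28 on the parental arrays, at -1.46, -1.43 and -1.18 on the Colony arrays and at -1.76, -2.05 and -2.30 on the SN arrays. The 3 groups did not overlap and stood in the same order as for IFI16. The difference was 1.75 ± 0.14 in Colony cells (3.36-fold, adjusted p = 0.0148) and 1.07 ± 0.19 in SN cells (2.09-fold, adjusted p = 0.0585). When 1 array was left out the Colony difference was 1.66 to 1.85, and TLR3 was not called without parental replicate 2 (adjusted p = 0.0546), Colony replicate 2 (adjusted p = 0.0932) or Colony replicate 3 (adjusted p = 0.0595).

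None of the interferon genes was called in a comparison of 2 groups. The probes of IFNB1, IFNK, IFNL1, IFNL3 and IFNG were not well above background on any array, and IFNA1 had no probe. IFNE, an interferon made constitutively by some epithelia, was detected on all 9 arrays at -1.49, -1.77 and -2.38 in parental A549, -1.58, -1.54 and -1.40 in Colony cells and -2.51, -2.62 and -2.45 in SN cells. The SN arrays were the lowest without overlap. Colony exceeded SN cells by 1.02 ± 0.09 (2.03-fold, adjusted p = 0.0930), and the F test passed (adjusted p = 0.0438). IFNL2 was detected on all 9 arrays at -3.25 to -1.89, with ranges that overlapped in every comparison. Among the inhibitors, SOCS1, which blocks the receptor kinases, was 1.14 ± 0.34 higher in Colony (adjusted p = 0.0896) and 1.27 ± 0.37 higher in SN than in parental cells (adjusted p = 0.136). Its probe was detected on 2 of 3 parental arrays, at -4.36, -3.50 and -3.36, and on all Colony and SN arrays, so the size of these differences is uncertain.

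Of 8 retrovirus restriction factors tested, 7 were lower in Colony than in parental cells, beside 16300 of all 30864 probes tested. The median of the 8 was -0.30. At an unadjusted p under 0.05, 4 were lower, beside 14.9% of all probes. An adjusted p under 0.05 was reached by 2 of the 8, and none passed the fold change of 2. APOBEC3B, a cytidine deaminase that mutates viral DNA, stood at 1.83, 1.80 and 1.88 on the parental arrays, at 0.99, 1.04 and 1.20 on the Colony arrays and at 1.55, 1.85 and 1.65 on the SN arrays. The Colony arrays were below all others, and the SN arrays overlapped the parental ones. Colony minus parental was -0.76 ± 0.10 (1.69-fold lower, adjusted p = 0.0240), and Colony minus SN was -0.61 ± 0.12 (adjusted p = 0.114). APOBEC3F, a relative, gave -0.69 ± 0.20 (adjusted p = 0.0893) against parental A549. SLFN11, which limits the translation of viral transcripts, was -0.54 ± 0.16 in SN against parental cells (adjusted p = 0.140). GBP4, a target of interferon-gamma, read -3.18 to -2.94 in Colony and -2.82, -2.79 and -1.70 in SN cells. Its difference of -0.60 ± 0.32 (adjusted p = 0.358) rested on SN replicate 3, and without that array it was -0.23 (adjusted p = 0.244).

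**Figure D4:**
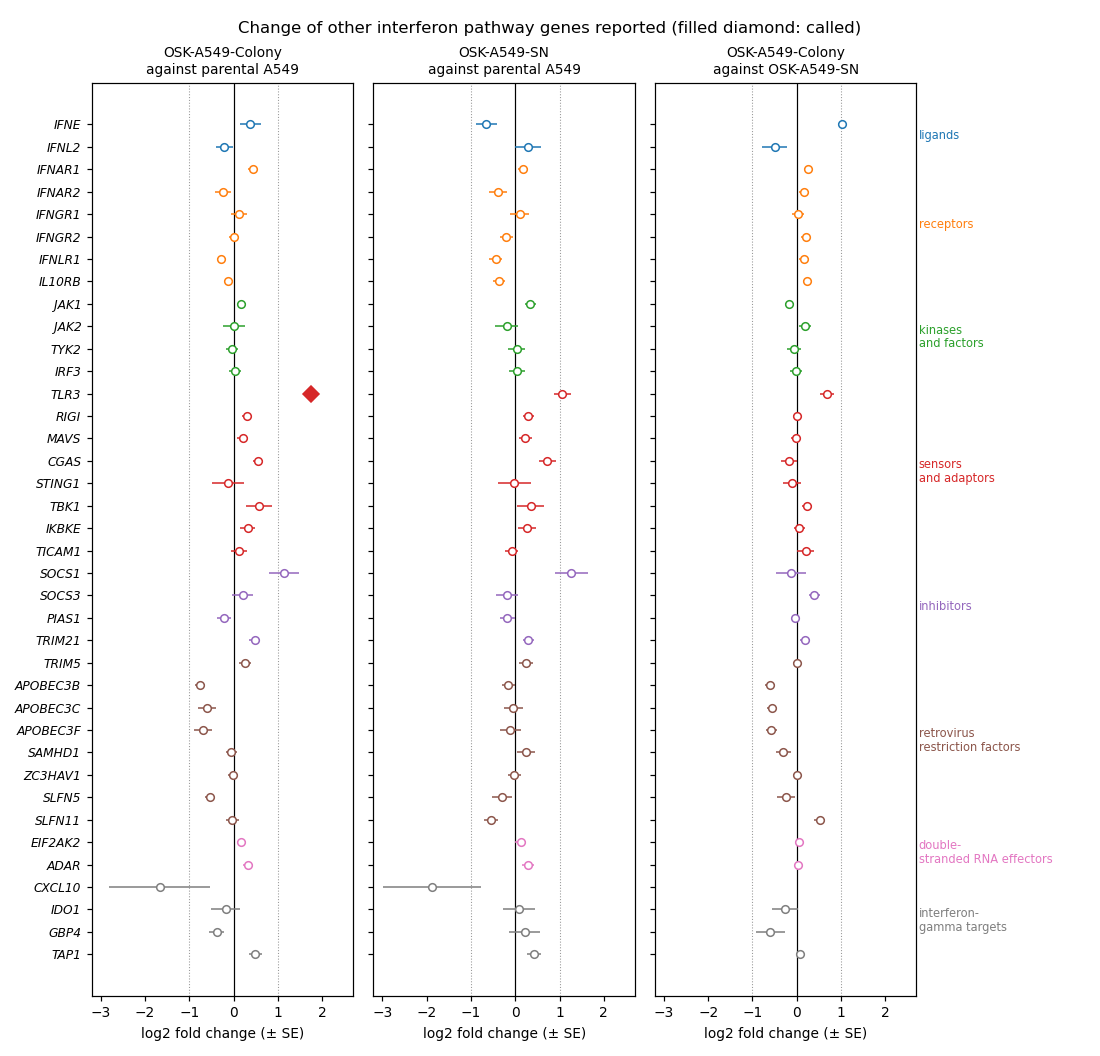
Log2 fold change ± SE (x axis) of the other interferon pathway genes tested and reported here, in rows ordered by role, for the 3 comparisons, with dotted lines at a 2-fold change. The filled diamond, TLR3 at 1.75 in Colony against parental A549, is the 1 gene called, and the APOBEC3 genes lie left of 0 in both plots of Colony cells.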

How the data were processed

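The authors hybridised RNA to SurePrint G3 Human 8x60K v2 arrays and deposited, per array, Agilent Feature Extraction output with background-subtracted spot intensity, not scaled between arrays, and a table of log2 values. The deposited log2 values matched the ones used here, after a shift by 1 constant per array, within 0.001 for 99.994% or more of an array's probes.

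Control spots (4259) and outlier spots (357 to 484 of 62976 per array) were left out, the log2 intensities of the spots of a probe were averaged and the 75th percentile over the 50599 probes was subtracted. A probe was detected where a share of 0.5 or more of its spots was positive, significant and well above background. No spot was saturated. Symbols came from RefSeq accessions matched without versions (30275 of 32065 probes). For each gene the probe with the highest mean over 9 arrays was used. Between 25808 and 29315 probes were detected per array, and the lowest detected intensity was 7.91 to 13.5. The number of arrays limits the precision, and p-values measure the spread between these samples.

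For each pair of groups limma (3.58.1, under R 4.3.3) was run with lmFit and eBayes on 6 arrays, keeping probes that 1 or more of these detected, and an F test used all 9. Calls needed a fold change over 2 and, after Benjamini-Hochberg adjustment, p under 0.05. The fits were tested on simulated data. Genes named are those called by any test, those detected on no array, and per comparison the 5 largest increases and 5 largest decreases among genes detected on all arrays of the brighter group. IRF1, IRF7, IFIT2, IFIT3, IFIT5, USP18, HERC6, GBP1, SAMD9 and MX2 fall outside this rule and were named after their values were seen. Of the pathway list, those called, the ligands and the 2 largest changes each way per comparison are named. The members and lists were chosen with earlier results of these data known. The replicate numbers were checked for pairing by the correlation of deviations from group means. Alternatives were normexp (offset 50, on median brightness, since mean brightness was not at hand), quantile normalization, no or a stricter detection filter, detection in both groups (chosen after seeing the data), a block for slide or for replicate number, 1 fit of all 9 arrays, the log2 table, the mean of a gene's detected probes, and leaving out each array. Coordinates are given for RefSeq promoters alone. Some items of that list are not reported here.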

Additional observations from a re-analysis of the deposited data

How the results depend on the processing

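The number of interferon-stimulated genes called in OSK-A549-Colony against parental A549 was 5 and became 1 with normexp, 2 without a detection filter, and 0 to 6 when 1 array was left out. Their median log2 difference of 0.36 was 0.20 with normexp, and that of 0.25 for SN against parental cells was 0.13. For OSK-A549-SN against parental A549 the count of 1 became 0 with quantile normalization, without a detection filter or with slide as a block, 3 with the stricter filter (IFI16, OASL and ISG15), 2 with all 9 arrays in 1 fit and 2 with detection in both groups, added after seeing the data (IFI16 and ISG15 each time), and 0 when any array was left out. Over all probes the count of 498 in this comparison was 980 with the stricter filter, 1085 with all 9 arrays and 595 with detection in both groups. With normexp it was 1 gene of the group, but the gene was ISG15 and not IFI16. The F test count of 5 became 10 with normexp, 3 without a filter, 13 with the stricter filter and 1 to 9 when 1 array was left out, the highest without parental replicate 3. Over all probes the F test count of 3778 became 5022, 1978 and 5820 under the first 3 of these and 986 to 3980 with 1 array left out. For Colony against SN cells the count was 0 under every alternative run. The cause of these changes was not tested, beyond fewer arrays or another number of probes tested by construction.

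With replicate number as a block, 0 genes were called in OSK-A549-Colony against parental A549, 0 in OSK-A549-SN against parental A549 and 0 in Colony against SN cells, and 2 in the F test (IFI16 and CMPK2), where 1194 of all probes were. No label says that a number marks a shared culture, although Colony and SN arrays of 1 number have the same passage, so the numbers were not taken as pairs. The correlations of same-numbered arrays ran from -0.05 to -0.01 for Colony with parental, -0.20 to 0.15 for SN with parental and 0.07 to 0.24 for Colony with SN arrays. In the last case every Colony array correlated best with the SN array of its own number. By the methods SN cells come off the dish on which the colonies stay, so arrays of 1 number may share a culture, which the labels do not state.

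The counts of all probes called moved as well, from 1143 to 333 with normexp and to 0 with the replicate block in Colony against parental A549. Signals near background limit IFI16, CMPK2, MX1, OASL, DDX60 and, of the pathway list, SOCS1, which parental arrays detected in part or not at all.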

Other observations

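2 values among the other probes of the pathway stood apart and were picked after they were seen. CXCL10, a chemokine gene induced by interferons, was detected on parental A549 replicate 2 alone, at -2.10, and stood at -6.93 to -6.06 on the other 8 arrays, so no difference is given. A second probe of HERC6, detected on 4 of 9 arrays, differed by 1.25 in Colony and 1.19 in SN against parental cells, while the brighter probe used, detected on 3 arrays, differed by 0.05 and -0.25.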
